A study of Homo sapiens with 34 samples.

Results

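The nuclear genes for mitochondrial respiration, the mitochondrial ribosome, protein import and inner membrane transport were followed through 3 lists of m6Am peaks from HEK293T, a human embryonic kidney cell line. Members were the lines whose gene name begins with NDUF, SDHA to SDHD, UQC, COX or COA and a digit, ATP5, MRPL, MRPS, TIMM, TOMM, SLC25A, MICU, CHCHD, MFN or OPA, with 2 gene names set aside. They made up 26 of the 1652 spans listed for unstressed HEK293T cells, 4 of the 390 listed for hypoxia and 1 of the 74 listed for heat shock. Together these 31 lines of 2116 carry 28 gene names of 1807.

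In m6Am-seq, fragments that carry a cap are pulled down with an antibody to m7G, one portion is exposed to the demethylase FTO under a condition that removes m6Am and spares m6A, and m6A antibody is then used on both portions. Wild-type cells gave 2 input, 2 m7G-IP, 2 FTO (+) m6A-IP and 2 FTO (−) m6A-IP libraries and 1 by CAGE, while cells without the methyltransferase PCIF1 (PCIF1-KO) gave 1 of each of the first 4 kinds. Untreated control, heat-shocked (43 °C for 2 h, then 6 h of recovery) and hypoxic (1% oxygen for 24 h) cells each gave 2 libraries of each immunoprecipitation and 1 input. All came from HEK293T cells, and the labels do not say whether replicates were separate cultures or what kind of clone the PCIF1-KO cells are. The lists hold no expression values, so neither the cell line nor the knockout could be checked against them. Each list holds 1 set of outer spans, introns included, with a gene name and no count, strand or replicate. Read depth is unknown here, no error between replicates can be given, and the intervals below are 95% Wilson intervals for shares and order-statistic intervals for medians, which cover counting error only. A stress list holds peaks that the authors called as differing between stressed and untreated cells. Only presence in those lists was used here, and no direction is given.

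m6Am is N6,2′-O-dimethyladenosine, the first transcribed base of an mRNA that starts with A, next to the cap. PCIF1 adds the N6 methyl group and FTO can remove it. The proteins of oxidative phosphorylation are encoded in part by mitochondrial DNA and for the most part in the nucleus. The nuclear mRNAs are capped and translated in the cytosol, so that their first base can carry m6Am, and the proteins then enter through the TOM and TIM translocases. The mitochondrial ribosome makes the subunits encoded in mitochondrial DNA, while SLC25 carriers move metabolites across the inner membrane. Many promoters of these genes hold sites for NRF1, for the ETS factor GABP and for YY1.

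To show what an m6Am span covers at its 5′ end, windows around the annotated transcription start site (TSS) are given for some of the members found under hypoxia or with a TSS at A in a span of at most 1000 bp. Each runs from 40 bases before the TSS to the TSS and the 29 bases after it, 5′ to 3′ on the gene's strand of GRCh37, and the capital letter marks the TSS. Those of MRPL50 (chr9:104160871-104160940, minus) and NDUFA2 (chr5:140027327-140027396, minus) are the TSSs nearest to the spans' 5′ ends. Those of NDUFAF1 (chr15:41694629-41694698, minus), TIMMDC1 (chr3:119217359-119217428, plus), ATP5IF1 (chr1:28562595-28562664, plus) and SLC25A38 (chr3:39424821-39424890, plus) are the TSSs at A closest to that end. In NDUFAF1 and TIMMDC1 no protein-coding transcript starts at an A in the span, so the marked A starts another annotated transcript of the gene.
MRPL50: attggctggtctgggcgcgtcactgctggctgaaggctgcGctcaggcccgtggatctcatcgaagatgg
NDUFA2: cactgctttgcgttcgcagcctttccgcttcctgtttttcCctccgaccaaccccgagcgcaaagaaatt
NDUFAF1: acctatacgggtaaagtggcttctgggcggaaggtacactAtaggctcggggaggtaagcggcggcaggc
TIMMDC1: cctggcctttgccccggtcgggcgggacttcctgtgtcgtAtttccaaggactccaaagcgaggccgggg
ATP5IF1: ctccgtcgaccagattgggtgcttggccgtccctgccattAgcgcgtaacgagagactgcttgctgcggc
SLC25A38: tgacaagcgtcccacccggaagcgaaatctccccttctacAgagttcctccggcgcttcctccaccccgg

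Of the 291 protein-coding genes of Gencode whose names match, 25 are named in the HEK293T list (8.59%, interval 5.89 to 12.4%). Over all 20147 protein-coding genes the share was 7.14%, which lies inside that interval, so the share is close to the background and is no result about these genes. Expression was not measured in these lists, and its part in which genes are listed was not tested.

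Respiratory complexes were represented unevenly in number, with wide intervals. Of the 39 genes with a complex I subunit name, 5 are listed (12.8%, interval 5.6 to 26.7%). These are NDUFA2, NDUFA7, NDUFA8, NDUFC1 and NDUFS5, which all encode accessory subunits. The group was set by the letters of the name and not by a list of subunits. Of 8 NDUFAF genes for complex I assembly, NDUFAF1 alone is listed. None of the 8 genes with a complex II name is in the list, which allows a share of up to 32.4%. Of 14 complex III names, 2 are listed, namely UQCRB, which encodes a subunit of the complex, and UQCRHL, an intronless copy of the hinge protein gene. For complex IV, COX11, a copper chaperone, was the 1 protein-coding gene of 26, and none of 7 COA assembly genes is listed. The ATP synthase had 3 of 20, namely ATP5F1D of the central stalk, ATP5PF of the peripheral stalk and ATP5IF1, the inhibitor of ATP hydrolysis.

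The ribosome and transport genes gave similar shares. MRPL2, MRPL22 and MRPL40 are the 3 listed genes of 49 for the large mitoribosomal subunit (6.12%, interval 2.10 to 16.5%), and MRPS21 and MRPS31 the 2 of 29 for the small one (6.90%, interval 1.91 to 22.0%). Of 16 TIMM genes, 2 are listed: TIMM9, a small chaperone of the intermembrane space, and TIMMDC1, which despite its name is known as a complex I assembly factor. TOMM40L, a relative of the outer membrane channel protein, is 1 of 10 TOMM genes. Of 47 SLC25A genes, 4 are listed (8.51%, interval 3.36 to 19.9%), among them SLC25A13, the aspartate/glutamate carrier citrin, SLC25A38, a glycine carrier needed for haem synthesis, and SLC25A35. MFN2, a GTPase of outer membrane fusion, is 1 of 17 names in the group of calcium uptake, cristae and fusion genes. All 13 families had intervals that hold the 7.14% of all genes. The name rule reads letters only, so that this group also counts MFNG and OPALIN, which are no mitochondrial genes and are not listed.

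**Figure D1:**
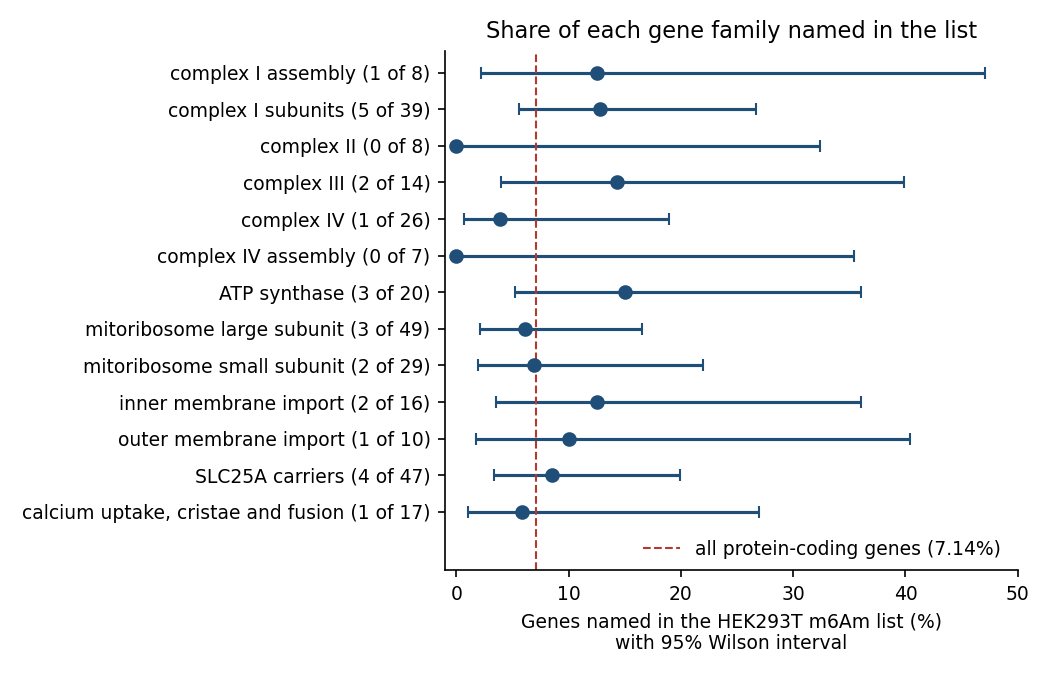
Share of the protein-coding genes of each family named in the HEK293T m6Am list (horizontal axis, percent; points, with 95% Wilson intervals as bars), with the count beside each family name. The dashed line at 7.14% is the share over all protein-coding genes, and every family's interval crosses it.

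Going by exons in place of names, 30 of the 291 genes had an exon in a listed span (10.3%, interval 7.32 to 14.3%), against 8.75% of all 20147 protein-coding genes by the same rule, which lies inside the interval. The 5 genes added this way lie in spans named for a neighbour. The span named YIPF2 holds a TSS of TIMM29 and begins 75 bp upstream of it, and the span named TP53INP1 begins 1 bp downstream of a TSS of NDUFAF6. A TSS of COA6 lies 362 bp inside the end of the span named LOC101927765, one of TOMM70 309 bp inside that of LNP1, and COX10 falls in the span named COX10-AS1. All 5 spans hold an annotated TSS of the mitochondrial gene, and the nearest one is an A in COA6, COX10, NDUFAF6 and TIMM29 and a C in TOMM70. Since the spans have no strand, the lists do not say which transcript carried the signal.

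The outer spans of the 26 members had a median length of 2690.5 bp (interval 328 to 4943) and ran from 150 bp in NDUFAF1 to 44819 bp in SLC25A13. Over all 1652 spans the median was 1228.5 bp, inside that interval. Of the members, 10 (38.5%, interval 22.4 to 57.5%) were at most 1000 bp long, against 47.3% of all spans. Counted in exons of the named gene, the median was 417 bp (interval 235 to 606) in the 25 members that could be matched, against 355 bp over 1517 matched spans.

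The short spans touched 1 or 2 exon blocks. NDUFAF1 (chr15:41694509-41694658, 150 bp), SLC25A35 (chr17:8198481-8198661, 181 bp), ATP5F1D (chr19:1241749-1241983, 235 bp) and UQCRHL (chr1:16133955-16134194, 240 bp) had 100% of their bases in annotated exons. TIMMDC1 (chr3:119217368-119217574, 207 bp) had 87.4%, SLC25A38 (chr3:39424815-39425085, 271 bp) 83.0%, COX11 (chr17:53045847-53046146, 300 bp) 72.7% and ATP5IF1 (chr1:28562602-28562929, 328 bp) 67.1%. NDUFA2 (chr5:140026931-140027370, 440 bp) had 96.8% and TOMM40L (chr1:161195759-161196246, 488 bp) 65.8%. These are the 10 members within 1000 bp, and the next longer one is MRPL2 at 1441 bp.

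Most of the spans over 1000 bp touched several exon blocks of their gene. SLC25A13 (chr7:95906641-95951459) had 417 exonic bases in 4 exon blocks, which is 0.93% of its span. TIMM9 (chr14:58875622-58893960, 18339 bp) had 867 exonic bases in 6 blocks, MRPL22 (chr5:154320633-154335996, 15364 bp) 1567 in 3, and MRPS21 (chr1:150266262-150280519, 14258 bp) 606 in 3. NDUFA8 (chr9:124914674-124922098, 7425 bp) joined 2 blocks with 167 exonic bases, the fewest of the long spans. Spans of 1441 to 6719 bp were those of, among others, NDUFC1 (chr4:140216987-140223705), NDUFA7 (chr19:8381507-8386297), MRPS31 (chr13:41341069-41345347), MRPL40 (chr22:19419425-19422296), NDUFS5 (chr1:39491967-39494600), MFN2 (chr1:12040238-12042143) and MRPL2 (chr6:43025843-43027283), with 291 to 2173 exonic bases. UQCRB (chr8:97244094-97247862) had 3681 of its 3769 bases in annotated exons as a single block, and ATP5PF touched 1 block with 727 of its 10276 bases. Some annotated transcripts of these genes retain introns, and their exons count here. In all, 15 of 25 members (60.0%, interval 40.7 to 76.6%) touched more than 1 exon block, against 53.0% of all matched spans.

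**Figure D2:**
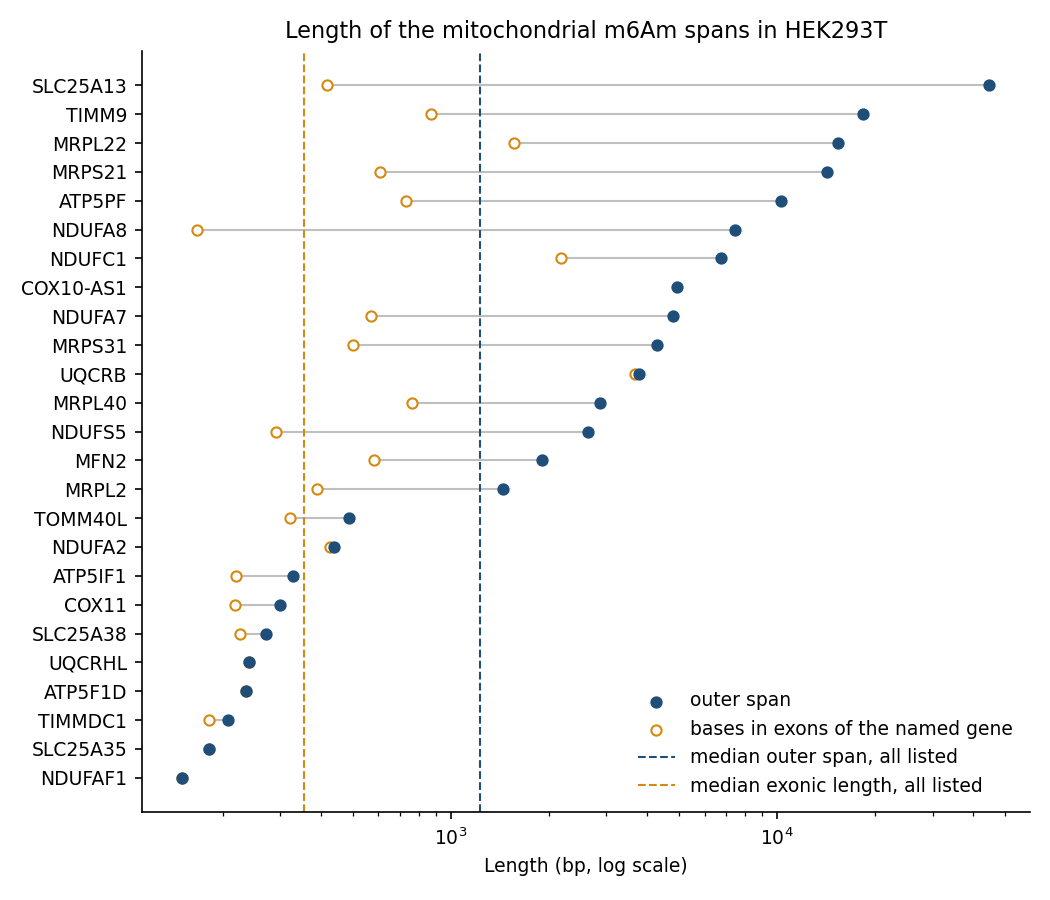
Length of 25 of the 26 member spans in HEK293T (filled points) and their bases in exons of the named gene (open points, 24 members) on a log axis in bp, with dashed lines at the medians of all listed spans (1228.5 and 355 bp). The outer spans run from 150 to 44819 bp, while the exonic lengths run from 150 to 3681 bp.

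All 25 matched members held at least 1 annotated TSS of their gene (interval 86.7 to 100%), as did 94.4% of the 1517 matched spans. For TSSs of protein-coding transcripts it was 24 of 25 (96.0%, interval 80.5 to 99.3%), against 87.1% of all. The NDUFAF1 span held only TSSs of other transcripts of its gene. The study took m6Am peaks from 5′ peaks that overlap m7G-IP peaks and called them on RefSeq gene models, so a place at a TSS is partly built in. The 5′ end of the span lay within 100 bp of a TSS in 22 members (88.0%, interval 70 to 95.8%), against 82.2% of all. It fell exactly on a TSS in 7, upstream of the nearest one in 17 and downstream in 1. MFN2, NDUFAF1, SLC25A35, NDUFC1, MRPL22 and SLC25A13 are among the 7 whose span begins on the TSS itself, and ATP5F1D begins 1 bp upstream. TOMM40L is the single downstream case, at 30 bp. The median distance was 23 bp (interval 1 to 46) in members and 15 bp over all matched spans.

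The 3 members beyond 100 bp were MRPL2 at 107 bp, MRPL40 at 643 bp and ATP5PF at 9549 bp. The span named ATP5PF (chr21:27107258-27117533) runs from inside ATP5PF, a minus-strand gene, past its TSS and into GABPA on the plus strand. Its lower end lies 25 bp upstream of a GABPA TSS, where the first base is A, and it holds 748 exonic bases of GABPA beside 727 of ATP5PF, with a position in exons of both counted for each. GABPA encodes the DNA-binding subunit of the ETS factor GABP, a regulator of nuclear genes for mitochondrial proteins. Likewise, the name COX10-AS1 was not matched to an overlapping Gencode gene. Its span (chr17:13972778-13977720, 4943 bp) begins 29 bp upstream of a TSS of COX10, the haem A farnesyltransferase gene, which is also an A, and holds 240 exonic bases of COX10. The span named ATP5PF thus ends 9549 bp beyond the annotated ATP5PF gene, in a part that no annotated ATP5PF transcript reaches. In the span named COX10-AS1, COX10 has an annotated TSS, while no Gencode gene of the listed name overlaps it. The spans have no strand, and which transcript carried the signal was not tested.

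**Figure D3:**
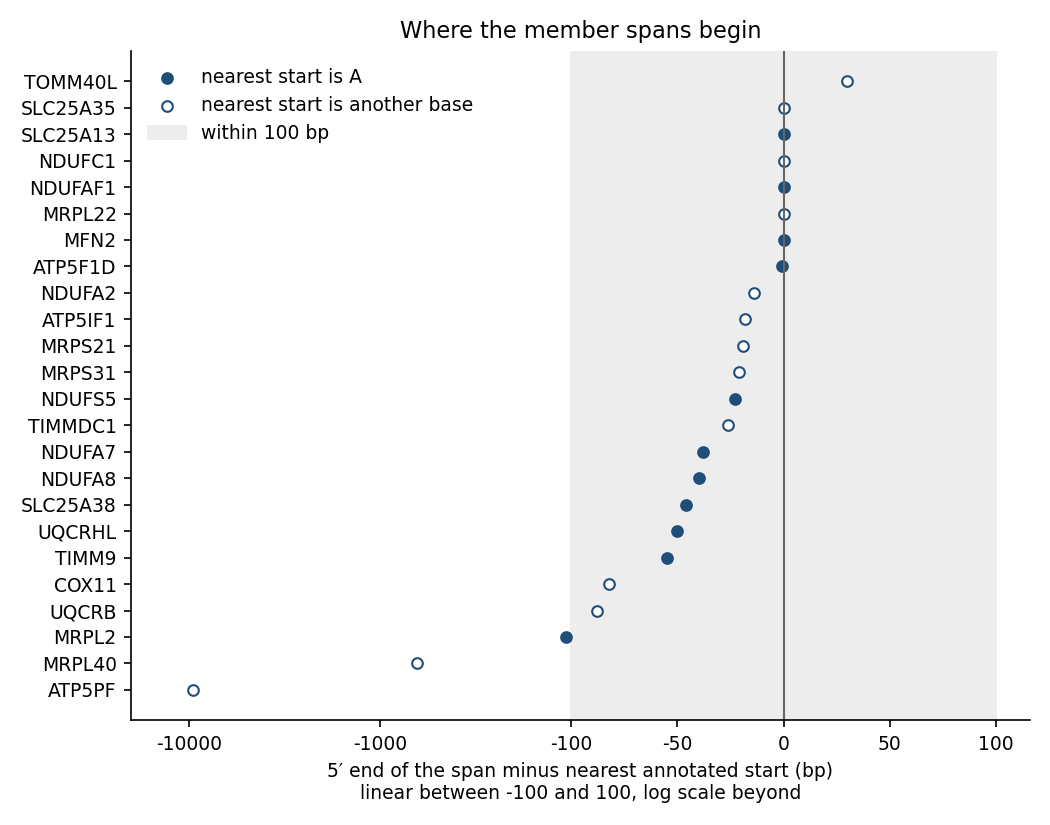
Position of the 5′ end of 24 of the 25 matched member spans relative to the nearest annotated TSS of its gene (horizontal axis, bp, negative upstream, linear within 100 bp of 0 and log beyond). Filled points have an A at that TSS, the grey band marks 100 bp to either side, and MRPL2, MRPL40 and ATP5PF lie outside it.

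Head-to-head gene pairs were present among the members. In 7 of 25 (28.0%, interval 14.3 to 47.6%) a protein-coding gene on the other strand starts within 1000 bp upstream of the member's TSS, against 19.2% of all matched spans. The distances were 24 bp for COX11 and STXBP4, 58 bp for NDUFA2 and IK, 120 bp for NDUFA7 and RPS28, 129 bp for NDUFA8 and MORN5, 193 bp for MRPL2 and KLC4, 198 bp for TIMM9 and KIAA0586, and 812 bp for MRPL40 and HIRA. The COX11 span is the 1 of the 7 that also holds the partner's TSS. The ATP5PF span holds a GABPA TSS too. That TSS lies downstream of the ATP5PF TSS used here, so the rule did not count this pair.

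An m6Am mark needs a transcript that starts with A, so the bases at annotated TSSs were read from GRCh37. In 20 of 25 members (80.0%, interval 60.9 to 91.1%) at least 1 annotated TSS in the span is an A, against 76.5% of all matched spans. Over TSSs of protein-coding transcripts it was 17 of 25 (68.0%, interval 48.4 to 82.8%), against 66.4%. The span holds no A start in MRPS21, MRPS31, NDUFA2, SLC25A35 and UQCRB, where annotation lists 2, 2, 3, 1 and 7 TSSs within it. In SLC25A13 all 4 of them are A, and in MFN2 5 of 16. With a median of 4 TSSs per member span, an A among them is easily met. Over single starts, 40 of 119 in member spans (33.6%, interval 25.8 to 42.5%) and 35.2% of those in all spans are A. At the TSS nearest to the 5′ end alone, 12 members (48.0%, interval 30 to 66.5%) have an A, 8 a G, 3 a C and 2 a T, against 45.0% with A over all matched spans. The A follows a C, as CA, in 10 of the 25 members (interval 23.4 to 59.3%) and in 29.9% of all matched spans. Each share over all spans lay inside the members' interval, and annotated starts need not be those used in HEK293T cells.

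UQCRHL needs a separate reading. Gencode starts the transcript in this span at the first base of the start codon, so the A counted for it is not an observed TSS, and the span begins 50 bp upstream of it. Of the span's 240 bases, 237 aligned to the UQCRH transcript with 234 identical and 3 mismatches (98.7%), and base 4 of the span aligned to base 23 of that transcript. UQCRH, the intron-bearing gene on chromosome 1 for the hinge protein, is in none of the 3 lists. Reads of both genes can hardly be told apart over this stretch, so the assignment to UQCRHL is uncertain in the HEK293T and the heat shock list. Of the 26 listed names, 12 have at least 1 annotated pseudogene named after them, among them MRPS21 with 8, NDUFS5 with 6 and MRPS31 with 4. No such count over all listed genes is given here, so this cannot be called a trait of the module.

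The spliced 5′ leader, from the coding transcript whose TSS is nearest to the span's 5′ end to its start codon, had a median of 100 bases (interval 57 to 224) in members and 202 bases (interval 189 to 212) over 1436 listed spans, and the 2 intervals overlap. It was shortest, UQCRHL aside, in MRPL40 with 10 bases, UQCRB with 16, NDUFA7 with 17 and MRPL22 with 38. The other end was held by ATP5PF with 692 and SLC25A35 with 536 bases. For ATP5PF the span's end lies 9549 bp from the nearest TSS, beyond the gene, so its value hangs on this choice of transcript. The span reached the coding sequence in 18 of 25 members (72.0%, interval 52.4 to 85.7%), against 63.7% of all. Those that covered none were MFN2, NDUFAF1, NDUFC1, SLC25A35, SLC25A38, TIMMDC1 and TOMM40L, with leaders of 187 to 536 bases. MRPL22 covered the most, with 357 coding bases.

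Promoters of the RefSeq table (GRCh38.p14, 250 bases before to 50 from the TSS) were matched by symbol for 17 of the 26 names, with 21 starts. The motifs, read on both strands, were GCGCATGC for NRF1, CCGGAAG for ETS factors such as GABP, AAGATGGC for YY1, CCAAT for NF-Y and TATAAA for the TATA box. The starts whose NRF1 or YY1 letters lie between 70 bases before and 29 after the TSS are shown, with those letters in capitals and the TSS as base 71 of each line: TOMM40L (chr1:161225990-161226089, plus), MRPL22 (chr5:154941003-154941102, plus), NDUFA8 (chr9:122159750-122159849, minus), NDUFA7 (chr19:8321346-8321445, minus) and ATP5PF (chr21:25735025-25735124, minus).
TOMM40L: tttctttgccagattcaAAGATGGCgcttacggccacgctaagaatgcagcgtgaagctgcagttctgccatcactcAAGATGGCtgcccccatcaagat
MRPL22: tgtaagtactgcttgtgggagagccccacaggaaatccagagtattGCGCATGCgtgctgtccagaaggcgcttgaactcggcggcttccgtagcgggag
NDUFA8: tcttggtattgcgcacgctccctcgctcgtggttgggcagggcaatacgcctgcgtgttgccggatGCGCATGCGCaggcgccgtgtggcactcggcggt
NDUFA7: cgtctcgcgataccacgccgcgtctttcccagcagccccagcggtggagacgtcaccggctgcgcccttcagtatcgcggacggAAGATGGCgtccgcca
ATP5PF: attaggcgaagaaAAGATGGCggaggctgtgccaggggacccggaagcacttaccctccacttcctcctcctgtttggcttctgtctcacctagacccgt

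In TOMM40L the YY1 letters occur at -53 and 7 relative to the TSS, counted as 0. In NDUFA8 the capitals hold the NRF1 letters on one strand and, overlapping them, on the other. In NDUFA7 the YY1 letters begin at 14 and contain the start codon, which follows a leader of 17 bases.

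The YY1 letters were in 5 of the 21 member promoters (23.8%, interval 10.6 to 45.1%), those of ATP5PF (both starts), MRPL22, NDUFA7 and TOMM40L. They were in 14.3% (interval 10.7 to 18.9%) of 279 promoters of unlisted genes of the module, 7.20% (interval 6.11 to 8.48%) of all 1833 promoters of listed genes and 3.53% of all 22198 promoters. The NRF1 letters were in 4 (19.0%, interval 7.67 to 40%), those of ATP5PF, MRPL22, NDUFA8 and TIMM9, against 10.4% (interval 7.34 to 14.5%), 5.24% and 3.74% in the same 3 sets. The ETS letters were in 7 (33.3%, interval 17.2 to 54.6%), namely both ATP5PF starts, MRPL40, MRPS21, MRPS31, SLC25A38 and TIMMDC1, against 31.5% (interval 26.4 to 37.2%), 16.6% and 12.8%. For these 3 motifs the intervals of the listed members and of the unlisted genes of the same families both lay above the share in all promoters, and they overlap each other. These intervals treat the 21 starts of 17 genes as separate, though windows of the same gene can overlap. The ATP5PF windows overlap and hold the same YY1 and ETS letters, which are thus counted for each start. The CCAAT letters stood at 28.6% (interval 13.8 to 50%), against 37.6%, 36.7% and 34.7%. TATAAA stood at 14.3% (3 promoters, interval 4.98 to 34.6%), against 3.94%, 6.82% and 9.46%, and this order turned round on the transcribed strand alone, where it was in 0 of 21 member promoters, against 2.87%, 4.36% and 6.48%. From 100 bases before the TSS to 50 from it, the NRF1 letters were in 2 of 21 (9.52%, interval 2.65 to 28.9%), against 5.73%, 3.33% and 2.61%, and the CCAAT letters in 3 (14.3%), against 24.4%, 23.9% and 22.0%. The first base was A in 11 of the 21 (52.4%, interval 32.4 to 71.7%). It was A in 40.1% (interval 34.6 to 46.0%) of the promoters of unlisted genes of the module. The share was 54.1% of promoters of all listed genes and 50.1% of all promoters. A match of letters is a description and not a bound site.

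The YY1 letters contain ATG. In Gencode, 3 of the 25 listed coding genes (12.0%, interval 4.17 to 30%), MRPL22, NDUFA7 and NDUFC1, have a start codon inside AAGATGGC. The share was 10.9% (interval 7.70 to 15.2%) of the 266 unlisted genes of the module, 5.42% of all listed genes and 2.82% of all protein-coding genes. MRPL50, listed under hypoxia, has such a start codon after a leader of 26 bases, and MRPS28, listed there as well, has none.

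**Figure D4:**
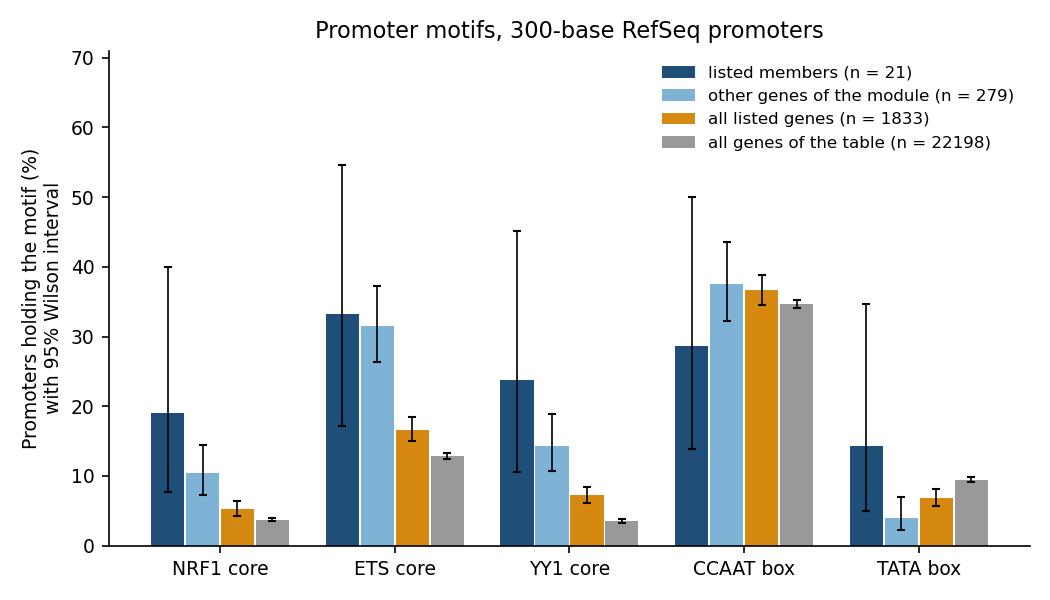
Share of RefSeq promoters that hold each motif on either strand (vertical axis, percent, bars with 95% Wilson intervals) in listed members, other genes of the module, all listed genes and all genes of the table. The ETS, NRF1 and YY1 bars are higher in both sets of the module than in all genes. The wide intervals of the 21 member promoters, which come from 17 genes, overlap those of the other module genes.

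Under hypoxia, 4 of the 291 module genes are named (1.37%, interval 0.536 to 3.48%), against 1.74% of all protein-coding genes. NDUFA2 and COX11 are in the HEK293T list as well, so that 2 of the 26 member spans (7.69%, interval 2.14 to 24.1%) were overlapped by a hypoxia span, against 13.5% of all 1652 spans. MRPL50 and MRPS28, which encode subunits of the large and the small mitoribosomal subunit, have no overlapping span in the HEK293T list. The stress lists were called against the untreated control libraries, which are labelled apart from the wild-type ones. A difference between a stress list and the HEK293T list can thus also be one between experiments. Of the hypoxia lines, 2 of these 4 and 56.4% of all 390 overlap a HEK293T span. The share over all genes or spans lies inside the members' interval each time.

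The shared spans were nearly the same pieces. The hypoxia span of NDUFA2 (chr5:140026923-140027370, 448 bp) keeps the 5′ end of the HEK293T span and extends 8 bp further downstream. That of COX11 (chr17:53045847-53046116, 270 bp) keeps the lower end and stops 30 bp short of the other, so that it begins 52 bp and not 82 bp upstream of the COX11 TSS. It covers 90.0% of the HEK293T span, and both hold the TSS of STXBP4. The span of MRPL50 (chr9:104153007-104160919, 7913 bp) begins 19 bp upstream of the single annotated TSS, a G, and has 244 exonic bases, 218 of them coding. ZNF189 starts 233 bp away on the other strand. The span of MRPS28 (chr8:80915327-80942506, 27180 bp) begins 12 bp upstream of a TSS at G, and has 641 exonic bases, 483 of them coding, in 4 blocks. None of the 8 TSSs in the MRPS28 span is an A, nor is any in the NDUFA2 span.

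Under heat shock, 1 of the 291 genes is named (0.344%, interval 0.0607 to 1.92%), against 0.303% of all protein-coding genes. That gene is UQCRHL, and its span (chr1:16134015-16134194, 180 bp) keeps the 5′ end of the HEK293T span and stops 60 bp earlier, covering 75% of it. Thus 1 of the 26 member spans (3.85%, interval 0.682 to 18.9%) was overlapped by a heat shock span, against 2.54% of all. No member is in both stress lists.

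**Figure D5:**
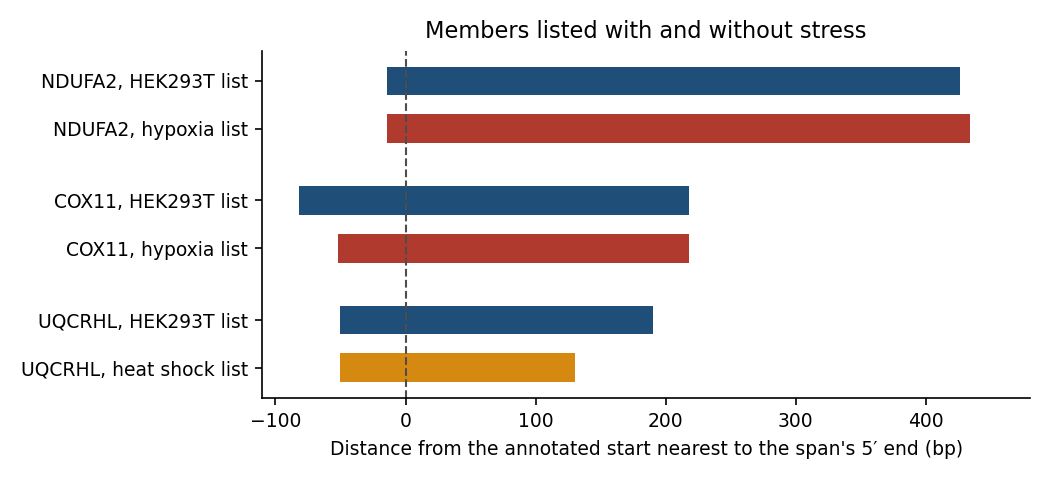
Spans of NDUFA2, COX11 and UQCRHL in the HEK293T list and in the stress list that holds them, as distance in bp from the annotated start nearest to the 5′ end (dashed line at 0), in the direction of transcription. For UQCRHL that start is the first base of the start codon, and the spans differ between lists by 8, 30 and 60 bp at 1 end.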

How the data were processed

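The 34 libraries, in 21 conditions by label, were not counted here. Per the study's methods, the authors trimmed reads with Trim Galore 0.6.6, aligned them to hg19 with HISAT2, called peaks with exomePeak and MACS2, and kept FTO-sensitive 5′ peaks that overlap m7G-IP peaks. The deposited lists give span coordinates and gene names. The stress lists also hold the authors' comparison of stressed with untreated cells, which was not used. How replicates were combined is not given in the sources used here. The title was followed for 1 PCIF1-KO library whose label describes another antibody.

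Coordinates were taken as GRCh37 counted from 1 (an exon's first base matched 244 span starts, and 20 after a shift by 1 base either way). Genes and TSSs came from Gencode release 44, in which 1517 of 1652 spans matched an overlapping gene of their name. Overlap was counted from 1 bp. No test was run. The members, families and motifs were chosen with earlier results of these data known. Every member was named except 1, which is counted and not reported here. The sequences shown were chosen by presence in a stress list, by a TSS at A in a span of at most 1000 bp or, after values were seen, by NRF1 or YY1 letters near the TSS. The functions were tested on simulated data. Python 3.11.15, SciPy 1.17.1 and Biopython 1.88 were used. Alternatives were other overlap, name, TSS and window rules and, added after seeing the data, a module without MFNG and OPALIN.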

Additional observations from a re-analysis of the deposited data

How the results depend on the processing

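No paired analysis was possible because each list holds 1 set of spans with no replicate, and for the same reason no replicate could be left out. Over 11 values and 26 alternatives, 22 stayed within the interval of the value they were set against and 4 did not. Most of these intervals are wide, so staying inside them is easily met and says little about robustness. The share of member spans with an A start was 80.0% over all TSSs in the span, 68.0% over those of protein-coding transcripts and 48.0% at the TSS nearest to the 5′ end, where fewer starts are read per span. Requiring an identical start and end left 0.0% of member spans in the hypoxia list and 0.0% in the heat shock list, while the same name or 50% of both spans left 7.69% and 3.85%. Read on the transcribed strand alone, TATAAA was in 0.0% and CCAAT in 14.3% of member promoters, and in the shorter promoter window NRF1 was in 9.52%, CCAAT in 14.3% and TATAAA in 9.52%. The median length of 2690.5 bp became 417 bp in exonic bases, which is another measure, though inside the wide interval of the outer spans. The share of module genes named was 8.61% without SLC25A and 8.65% without MFNG and OPALIN. Since depth is unknown, a gene missing from a list may carry m6Am below what was called.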
